A study of Mus musculus with 2 samples.

Results

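DEAD and DEAH box helicases are enzymes that bind RNA and use ATP to separate its strands or to strip proteins from it. The families are named for the residues of their ATPase motif II, and almost every step in the life of an RNA, such as splicing, nuclear export, ribosome assembly and translation, has members of its own. Several of them act as switches that move the spliceosome or a pre-ribosome from a stage to the next, and most are needed in every dividing cell, ES cells included. The genes described here are the protein-coding genes of GENCODE M21 whose symbol starts with Ddx or Dhx followed by a digit and that were counted in both libraries. Ddx3y, Ddx4, Ddx5, Ddx6, Ddx17, Ddx58, Dhx9 and Dhx58 were left out by that rule. This gave 45 genes, 31 of them Ddx and 14 Dhx, out of 43629 counted genes. They were sorted by the best-known role into splicing (10 genes), mRNA export (4), ribosome assembly (16), the mitochondrial ribosome (2), translation, mRNA surveillance and RNP assembly (6), and other or less defined roles (7).

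The samples were mouse embryonic stem (ES) cells with a Drosha knockout, on a 129/Ola background, untreated, at passage 7, in medium with serum and LIF, a cytokine that keeps mouse ES cells undifferentiated. Drosha is the nuclease that starts the processing of most microRNAs, and the knockout was made by a paired CRISPR/Cas9 approach. Poly-A RNA of 2 libraries, B and A, was sequenced, and a control genotype was not analysed here, so no level below can be read as an effect of losing Drosha. The titles number the cells of B and A differently while the source names are the same, and the cell type is given for A alone. Nothing says that the cells were grown apart, so the spread between B and A may be technical. The libraries held 42322129 reads on genes in B and 29264632 in A. A count of 0 would allow up to 0.0711 CPM (reads scaled to library size by TMM) in B and 0.102 in A, the level of 3 reads, and all intervals and floors cover counting error only. Drosha had 7023 reads in B and 4865 in A, but a count over the whole gene says nothing of a deleted exon and does not check the label. All 8 ES cell markers were above 100 TPM, and the lowest was Klf4 at 131 TPM in B and 139.8 in A. TPM, a unit that sums to the same total in each library, divides reads by exon length, so that levels of different genes can be compared.

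The coding sequence around motif II shows what makes these genes a family and where near-identical copies make their reads uncertain. Each line below gives 72 bases of the longest complete GENCODE M21 coding sequence, read on the coding strand of GRCm38, with the codons of motif II in capitals. The first 4 are Ddx3x (chrX:13288924-13289449, plus strand), the most abundant gene of the set, with Dhx15 (chr5:52171466-52171537, minus strand), which carries the DEAH form, and the export and splicing pair Ddx39 (chr8:83721080-83721744, plus strand) and Ddx39b (chr17:35247060-35248961, plus strand), whose motif has a cysteine codon in the third place. The windows of Ddx3x, Ddx39 and Ddx39b cross an intron and the others lie within an exon.
Ddx3x: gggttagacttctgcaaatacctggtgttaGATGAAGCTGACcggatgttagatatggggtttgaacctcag
Dhx15: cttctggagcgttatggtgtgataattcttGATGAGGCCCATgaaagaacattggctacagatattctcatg
Ddx39: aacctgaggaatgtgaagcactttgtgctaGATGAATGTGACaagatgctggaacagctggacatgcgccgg
Ddx39b: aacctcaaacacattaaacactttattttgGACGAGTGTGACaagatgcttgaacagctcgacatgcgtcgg
The next 4 lines are the neighbours Ddx21 (chr10:62591851-62591922) and Ddx50 (chr10:62640481-62640552), which have a valine codon there, and the neighbours Ddx19a (chr8:110979056-110979127) and Ddx19b (chr8:111011305-111011376), all on minus strands.
Ddx21: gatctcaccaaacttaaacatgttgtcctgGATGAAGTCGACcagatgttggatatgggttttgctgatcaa
Ddx50: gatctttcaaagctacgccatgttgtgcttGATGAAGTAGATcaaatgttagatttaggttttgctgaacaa
Ddx19a: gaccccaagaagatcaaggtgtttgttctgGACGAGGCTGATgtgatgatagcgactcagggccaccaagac
Ddx19b: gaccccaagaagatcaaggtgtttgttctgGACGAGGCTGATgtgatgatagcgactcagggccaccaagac
The last pair is Ddx18 (chr1:121561309-121561380, minus strand) and its processed pseudogene Gm16433 (chromosome 6, 108563605 to 108565588).
Ddx18: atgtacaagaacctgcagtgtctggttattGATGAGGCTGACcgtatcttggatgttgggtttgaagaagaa
Gm16433: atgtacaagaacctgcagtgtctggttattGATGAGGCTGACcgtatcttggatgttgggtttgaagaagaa
The windows of Ddx19a and Ddx19b differed at 0 of 72 bases, and so did those of Ddx18 and Gm16433. Those of Ddx39 and Ddx39b differed at 17 bases, and those of Ddx50 and Ddx21 also at 17.

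An in-frame search found the DEAD box codons in 21 of the 45 coding sequences, all of them Ddx genes, and the DEAH box codons in 8, all of them Dhx genes. The search took the codons of the motif 40 to 160 codons after a glycine, a lysine and a threonine or serine codon in a row. These stand for motif I, with its phosphate-binding lysine. The third place of motif II could hold alanine, cysteine, valine or isoleucine codons. Of all 21342 protein-coding genes with a complete coding sequence 0.248% held the DEAD form and 0.127% the DEAH form. A cysteine codon stood in the third place in Ddx39 and Ddx39b, and a valine codon in Ddx21, Ddx28 and Ddx50 before an aspartate codon and in Ddx60, Dhx29, Dhx30, Dhx34 and Dhx57 before a histidine codon. Dhx36 had an isoleucine codon. In Ddx1, Ddx11, Ddx24, Ddx52 and Dhx32 none of these was found at that spacing. Either the motif I codons or the motif II codons after them may have been missing, and the search did not tell these apart.

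Sequence shared with other genes was measured as the share of a gene's 50-base words that also occur in transcripts of genes elsewhere. It was 0 in 24 of the 45 genes and under 5% in 42. The exceptions were Ddx18 with 55.9%, most of it shared with Gm16433, Ddx19a with 28.1% and Ddx19b with 12.4%. Gm16433 was credited with 2949 reads in B and 1998 in A, beside 5213 and 3823 for Ddx18. Ddx19a and Ddx19b were 93.25% identical over 1437 aligned coding bases and shared an unbroken run of 275 bases. No source used here says how reads with several matches were counted, so the levels of these 3 genes are uncertain. Ddx39b and Dhx30 shared exon bases with small RNA genes on the same strand, 167 and 114 bases. A further 8 genes, and Dhx30 too, shared exon bases with a gene on the opposite strand, most of all Ddx39 with 895 and Ddx49 with 874 bases.

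The set was broadly and strongly expressed, with a wide spread between members. At 1 TPM or more in both libraries were 43 of the 45 genes, beside 56.3% of all 21551 protein-coding genes. The median member had 53.1 TPM in B and 54.2 in A, and the median over the mean of both libraries was 54.95 TPM, against 17.7 TPM for protein-coding genes that reached 1 TPM. Of the members, 37 lay above that value, and 15 were in the top 10% of protein-coding genes with a read. At 100 TPM or more were 12 members, 29 had 10 to 100 TPM, 2 had 1 to 10, and 2 were below 1. The highest member was 3670 times the lowest. Together they held 262319 reads in B, or 0.620% of the library, and 180870 in A, or 0.618%. The 5 highest made up 38.4% of the summed TPM of the set in B and 38.2% in A.

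**Figure D1:**
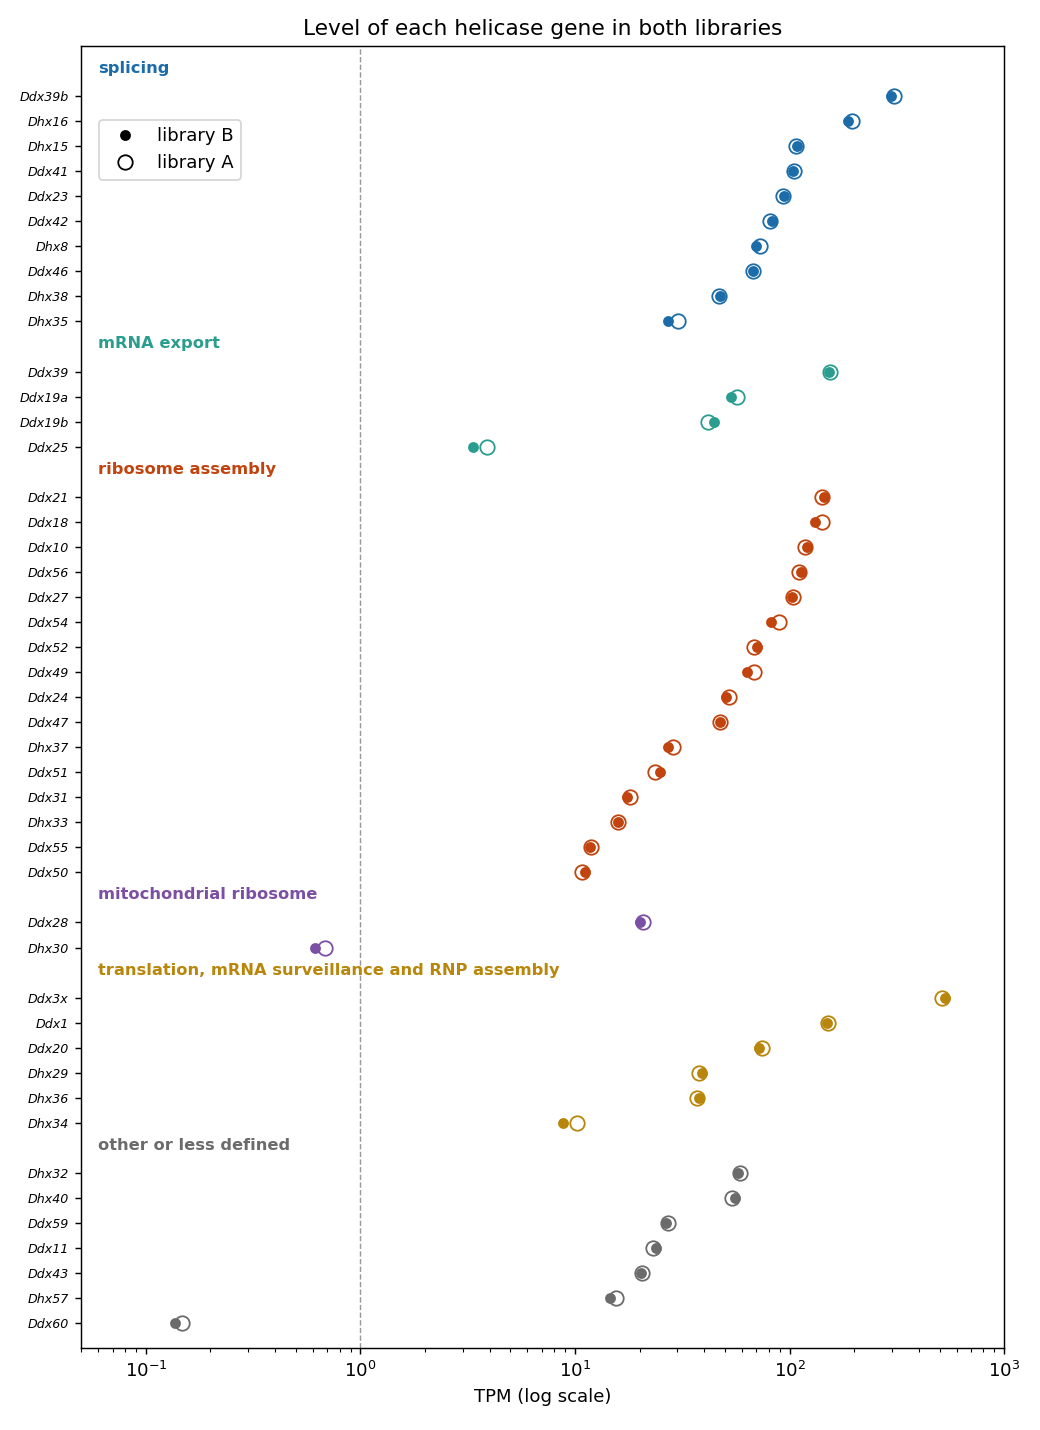
TPM of each helicase gene on a log axis, sorted by role; filled points are library B and open circles library A, and the dashed line marks 1 TPM. The libraries nearly coincide for each gene, while the members run from Ddx3x at 530.1 TPM in B and 516 in A to Ddx60 at 0.137 in B and 0.148 in A.

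The order of the members was nearly the same in both libraries. Of the 45, 31 held the same rank in B and A, and no rank moved by more than 1. Of the 44 steps between neighbours in the order, 34 were separated, in that both libraries of the higher gene lay above both of the lower. At the other 10 steps the ranges overlapped, as for Ddx47 and Dhx38 or Ddx43 and Ddx28. Dhx members were lower than Ddx members at the median, with 38.6 TPM in B and 37.35 in A, beside 67.8 in B and 68.2 in A for Ddx. The lengths used here are unions of all annotated exons, which can differ from the length of any single transcript. With the longest transcript in their place Dhx15 had 247 TPM and rank 3, not 10. Other ranks moved too, such as that of Ddx24 from 24 to 16, Ddx23 from 13 to 7 and Ddx10 from 8 to 14. The order thus depends on the length used, which the match between the libraries does not measure.

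Splicing helicases were the group with the highest median, 88.5 TPM in B and 87.5 in A, and all 10 were above 25 TPM. Ddx39b (chromosome 17, 35241746 to 35253707), which helps to place the branch-site snRNP and also couples splicing to export, led with 296 TPM in B and 306 in A. Dhx16, which sets the assembled spliceosome in motion, had 188 TPM in B and 195 in A. Neither passed the test between the libraries described below. Over the union of exons the values of both genes lay clear of each other and of every other splicing gene. With the longest transcript as length Dhx15, at 247 TPM, stood above Dhx16, at 189 TPM. Dhx15, which takes spent spliceosomes apart, had 109 TPM in B and 107 in A. Ddx41, a part of the catalytic spliceosome, had 103 TPM in B and 105 in A. Ddx23, which helps to swap the snRNP bound at the splice donor, had 93.9 TPM in B and 93.6 in A.

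The other 5 splicing helicases were lower. Ddx42 and Ddx46 both act with the branch-site snRNP. Ddx42 had 83.2 TPM in B and 81.4 in A, and Ddx46 had 67.8 in B and 67.5 in A. Dhx8, which releases the spliced mRNA, had 69.6 TPM in B and 72.5 in A. Dhx38, which acts between the catalytic steps, had 47.4 TPM in B and 47.1 in A. Dhx35, also found in the catalytic spliceosome, was the lowest at 27.1 TPM in B and 30.2 in A. Over both libraries Ddx39b averaged 301 ± 6.70 TPM and Dhx35 28.6 ± 2.21 TPM (SD, n = 2).

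The export group was uneven, with a median of 48.7 TPM in B and 49.3 in A. Ddx39, the close relative of Ddx39b in mRNA export, had 152 TPM in B and 154 in A. Its level was 0.513 of that of Ddx39b in B and 0.504 in A. The coding sequences of this pair were 81.2% identical, but the longest run they shared was 26 bases. Ddx19a and Ddx19b, which remodel mRNPs at the cytoplasmic side of the nuclear pore, lie 5387 bases apart on chromosome 8. Ddx19a had 53.1 TPM in B and 56.8 in A, and Ddx19b had 44.2 in B and 41.8 in A. Ddx19a was thus 1.201 times Ddx19b in B and 1.359 times in A, with the shared reads named above. Ddx25, known from the male germ line, was far below them at 3.34 TPM in B and 3.88 in A.

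Ribosome assembly was the largest group, and its 16 members covered more than a 10-fold range, with a median of 56.9 TPM in B and 60.1 in A. Most roles here are known from the yeast counterparts. Ddx21, a nucleolar helicase of ribosomal RNA transcription and processing, led with 145 TPM in B and 142 in A over the union of exons. Its neighbour and paralogue Ddx50 was then the lowest of the group at 11.1 TPM in B and 10.8 in A. The genes lie 13613 bases apart on chromosome 10. The ratio of Ddx50 to Ddx21 was 0.0768 in B and 0.0763 in A, and with the longest transcript as length it was 0.171 over both libraries. With that length Ddx50, at 21.8 TPM, was no longer the lowest and stood above Ddx51, Ddx31 and Ddx55, and Ddx27, at 148 TPM, led in place of Ddx21, at 127 TPM. The coding sequences of Ddx50 and Ddx21 were 71.5% identical.

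Of the members that assist the small subunit, Ddx10 had 121 TPM in B and 118 in A. Ddx52 had 70.3 TPM in B and 68.7 in A, and Ddx49 had 63.2 in B and 68.2 in A. Ddx47 had 47.2 TPM in B and 47.4 in A. The small subunit helicase Dhx37 had 27.2 TPM in B and 28.7 in A. This is 1.71 times Dhx33, a nucleolar DEAH helicase, in B and 1.82 times in A, but 0.961 times with the longest transcript as length, so the order of these genes is not settled. Dhx33 had 15.9 TPM in B and 15.8 in A.

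Of those that assist the large subunit, Ddx56 had 112.5 TPM in B and 111 in A, Ddx27 102 in B and 103 in A, and Ddx54 82.0 in B and 88.9 in A. Ddx18, whose yeast counterpart serves both subunits, had 132 TPM in B and 141 in A, with the pseudogene reads named above. Ddx24 had 50.6 TPM in B and 52.1 in A. The others were lower, with Ddx51 at 24.9 TPM in B and 23.6 in A, Ddx31 at 17.4 in B and 18.1 in A, and Ddx55 at 11.8 in B and 11.9 in A. Apart from Ddx18, which lay above Ddx56, these helicases of the large subunit ranged from Ddx56 to Ddx55 over the union of exons.

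The 2 genes of the mitochondrial ribosome lay far apart. Ddx28, which helps to build its large subunit, had 720 reads in B and 511 in A, and averaged 20.3 ± 0.482 TPM (SD, n = 2). Dhx30, another mitoribosome assembly factor, had 104 reads in B and 79 in A, or 0.615 TPM in B and 0.681 in A. Of the 45 genes Ddx60 alone was listed lower. Dhx30 has an annotated exon length of 10616 bases, and with that of its longest transcript it was at 1.21 TPM. It shares 114 exon bases with a gene on the same strand and 123 with a gene on the other. No source used here says how reads in shared bases were counted, and the part of the counting in this low value was not tested.

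Among the genes of translation, mRNA surveillance and RNP assembly stood the highest member of all. Ddx3x (chromosome X, 13280970 to 13294052), which helps ribosomes to start on mRNAs with structured leaders, had 44527 reads in B and 29744 in A, or 530.1 TPM in B and 516 in A. It made up 15.5% of the summed TPM of the set in B and 14.9% in A. Ddx1, a part of the complex that joins tRNA exons in splicing, had 149.7 TPM in B and 150.8 in A. Ddx20, a component of the SMN complex that assembles snRNPs, had 72.2 TPM in B and 74.6 in A. Dhx29, which helps ribosomes to scan structured mRNAs, had 39.2 TPM in B and 37.7 in A. Dhx36, which unwinds G-quadruplexes, had 38.0 TPM in B and 37.0 in A. Dhx34, of nonsense-mediated decay, was the lowest at 8.76 TPM in B and 10.2 in A.

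The 7 remaining genes were between 10 and 60 TPM except Ddx60. Dhx32 had 57.6 TPM in B and 58.7 in A, and Dhx40 had 55.8 in B and 54.2 in A. Ddx59, in which human mutations disturb signalling at the cilium, had 26.7 TPM in B and 27.1 in A. Ddx11, a DNA helicase of sister chromatid cohesion, had 23.8 TPM in B and 23.1 in A. Ddx43, best known from germ cells and tumours, had 20.3 TPM in B and 20.5 in A. Dhx57, a relative of Dhx36, had 14.5 TPM in B and 15.5 in A, which is 0.382 of the level of Dhx36 in B and 0.418 in A. Ddx60, an interferon-induced gene, had 19 reads in B and 14 in A, or 0.137 TPM in B and 0.148 in A.

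The pathways around these helicases were measured through lists of other genes, chosen by function. Splicing helicases, with a median over the mean of both libraries of 88.0 TPM, lay beside 31 spliceosome partners at 85.5 TPM, all of them at 1 TPM or more. The highest of these partners were Cdc5l at 268 TPM in B and 266 in A, the core factor Prpf8 at 249.5 in B and 248 in A, and Sf3a3 of the branch-site snRNP at 183 in B and 178 in A. The mRNA export partners had a median of 69.1 TPM, beside 49.0 for the export helicases, and were led by Poldip3 with 133 TPM in B and 136 in A, the export receptor Nxf1 with 127 in B and 136 in A, and Chtop with 123 in B and 124 in A. The 47 ribosome assembly partners had a median of 96.7 TPM and means of 29.2 TPM or more. The 16 helicases of that pathway had a median of 58.5 TPM and means of 10.97 TPM or more. All these levels are over the union of exons. With the longest transcript the 16 helicases had a median of 67.9 TPM, and the partner lists were not computed with that length. At the top of these partners were Nop56 with 302 TPM in B and 305 in A, Pes1 with 246 in both and Noc2l with 231 in B and 242 in A.

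The direct partner complexes of single members were also present. Around Ddx20, 7 of 8 SMN complex genes reached 1 TPM, with a median of 69.2 TPM, and the highest were Strap at 223 TPM in B and 225 in A, Gemin6 at 84.4 in B and 80.6 in A, and Smn1 at 74.2 in B and 73.0 in A. The exception was Gemin4, with 17 reads in B and 8 in A. Of its 3734 exon bases 3353 are shared with Glod4 on the same strand, and the part of the counting of such reads in this low value was not tested. Around Ddx1, all 4 matched genes of the tRNA ligase complex did, with the ligase Rtcb at 204 TPM in B and 206 in A, Rtraf at 192 in B and 191 in A and Fam98b at 41.7 in B and 41.0 in A. The 21 G-patch proteins, a group that holds activators of DEAH helicases, all reached 1 TPM, but at a median of 23.0 TPM. The highest were Rbm17 at 176 TPM in B and 171 in A, Aggf1 at 68.6 in B and 69.9 in A, and Gpatch4 at 58.3 in B and 55.4 in A. RNA helicases under other symbols had a median of 45.1 TPM over 18 genes. Eif4a2 led at 459 TPM in B and 445 in A, before Eif4a1 at 351 in B and 342 in A. Eif4a3 had 268 TPM in B and 269 in A. Over the union of exons Ddx3x exceeded each of these Eif4a genes. With the longest transcript Ddx3x had 477 TPM, and the Eif4a levels were not computed with that length. Eif4a2 shares 511 exon bases and Eif4a1 287 with genes on the same strand.

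**Figure D2:**
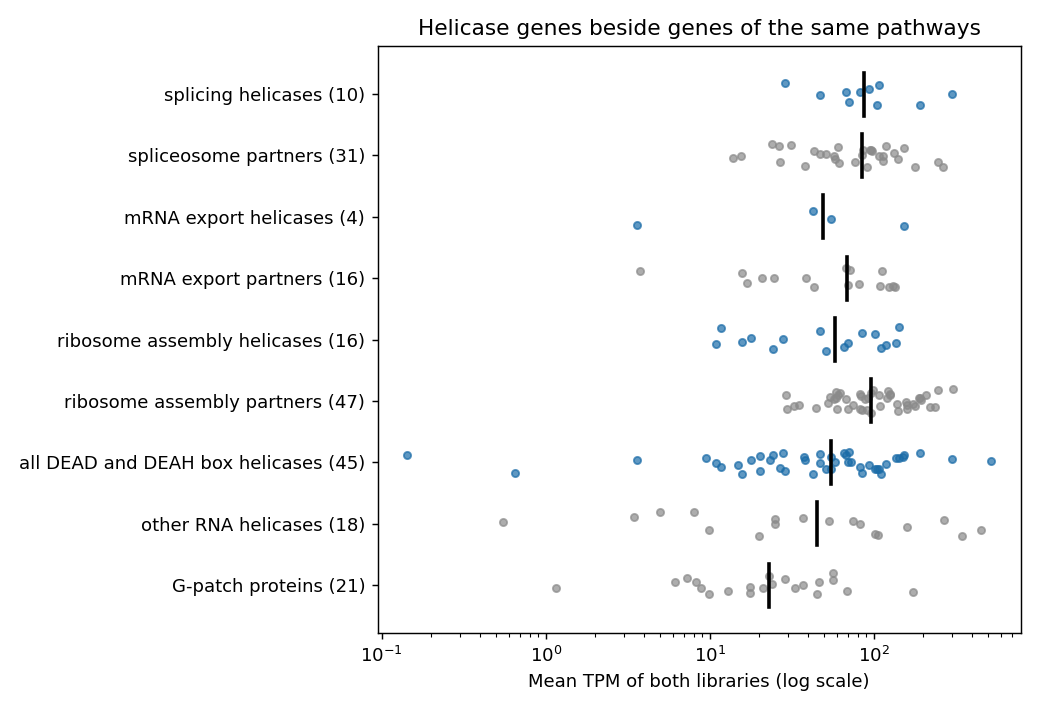
Mean TPM of both libraries on a log axis for helicase groups (blue) and other genes of the same pathways (grey); each point is a gene, black bars are medians and the number of genes stands in brackets. Over the union of exons, splicing helicases and spliceosome partners have medians of 88.0 and 85.5 TPM. With that length ribosome assembly helicases, at 58.5 TPM, lie below their partners at 96.7.

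How well the levels repeat was measured by comparing the read numbers of each gene between B and A. A two-sided exact binomial test was used, with Benjamini-Hochberg adjustment over 18198 genes. In bulk RNA a gene's level can differ through the mix of cells or through RNA per cell, and these cannot be told apart. The test compares these libraries and not conditions, and it weighs the difference against counting error only. All 45 members passed the filter of 10 reads, and 2 were called, Ddx3x higher in B and Ddx54 lower in B. The share called was 2.29% of all genes tested, 1.3% higher and 0.989% lower in B, 2.35% of protein-coding genes, and 4.27% of the genes with at least 1000 reads, to which 42 of the members belong. The share of members called was thus near that of genes of like depth. The split of all calls depended on the scaling, with 237 higher and 180 lower in B under TMM and 180 higher and 242 lower under total counts. The median log2 ratio of B over A was 0.001 for the members and -0.001 for all genes tested, and 23 members were higher and 22 lower in B. At an unadjusted p under 0.05 were 10 members, or 22.2%, beside 18.6% of genes with at least 1000 reads.

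The differences that were called were small. Ddx3x had a log2 ratio of 0.06 with a 95% exact (Clopper-Pearson) interval of 0.04 to 0.08, or 1.04-fold (adjusted p = 2.74e-05, exact binomial test). Ddx54 (chromosome 5, 120612739 to 120628592) had 8002 reads in B and 5950 in A, a log2 ratio of -0.10 with an interval of -0.15 to -0.05, or 0.935-fold (adjusted p = 0.00724, exact binomial test). With the trend of the ratio with GC content removed, both lost the call, with log2 ratios of 0.01 and -0.04 and adjusted p of 0.872 and 0.745 in the exact binomial test. Ddx19b had the largest ratio above 0, 0.10 (adjusted p = 0.0787, exact binomial test), and Dhx34 the largest below 0, -0.20 (adjusted p = 0.25, exact binomial test). Among the 42 members with at least 1000 reads, the widest interval, that of Dhx34, spanned 0.34 log2 units. The other 3, Ddx25, Dhx30 and Ddx60, were less well measured, and for Ddx60 the interval ran from -1.16 to 1.02, so that even a large difference was not detectable at this depth.

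**Figure D3:**
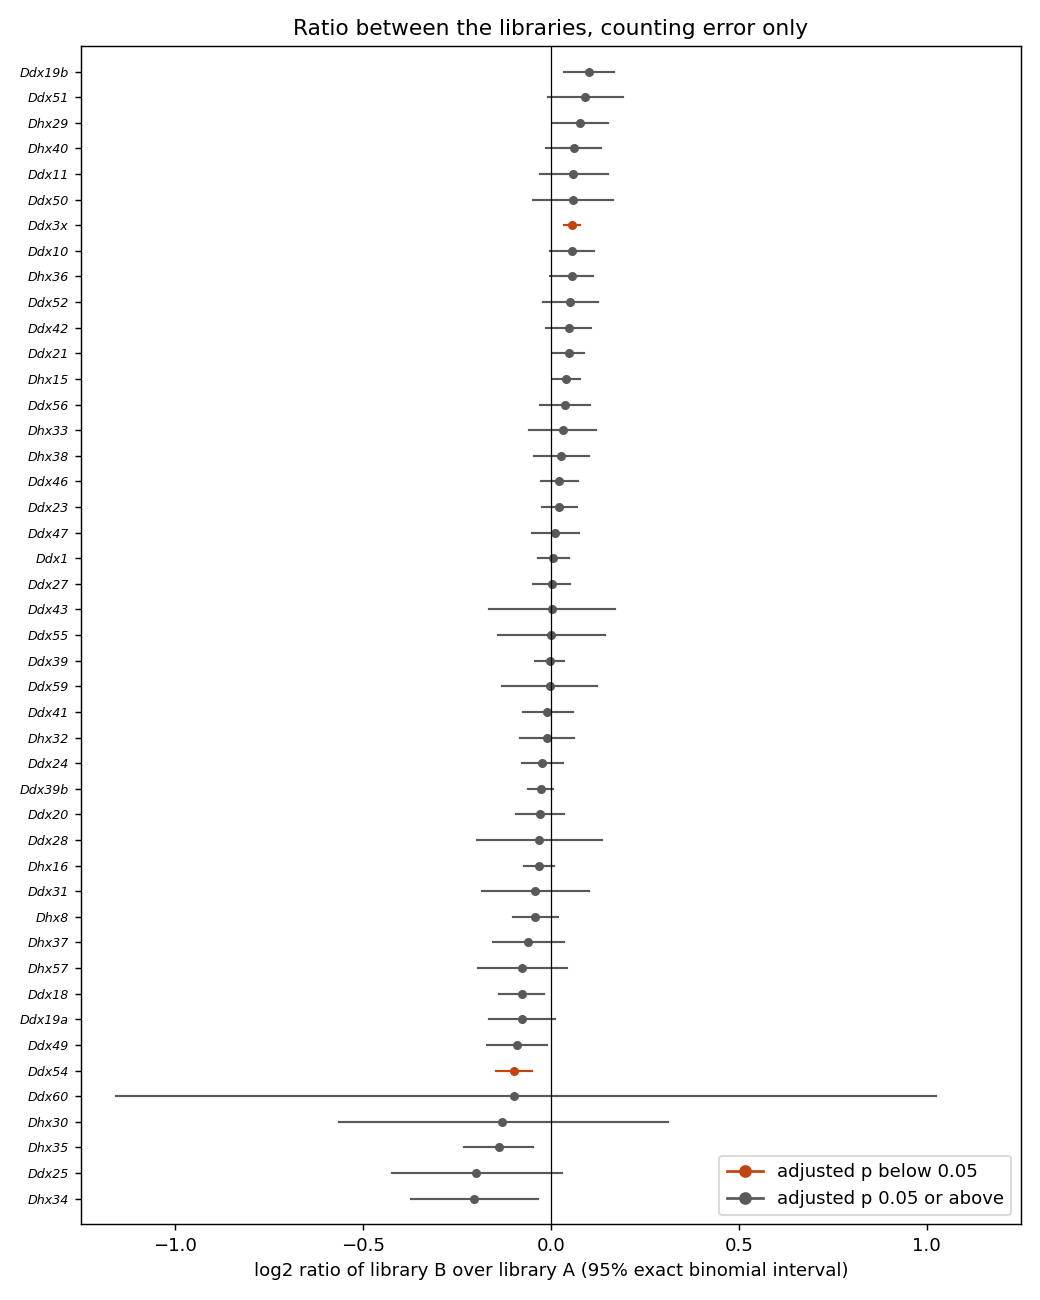
Log2 ratio of library B over library A for each helicase gene, sorted, with 95% exact binomial intervals that cover counting error only; orange marks the 2 genes with an adjusted p below 0.05. The points run from 0.10 for Ddx19b to -0.20 for Dhx34, and the widest interval is that of Ddx60.

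The ratio moved with GC content in the members as in other genes. Of the 23 members with a GC content at or above their median of 50.1%, 16 had a ratio below 0, and their median was -0.03 on the log2 scale. Of the 22 with less GC, 6 had a ratio below 0, and the median was 0.04. Ddx54 had 59.0% and Ddx3x 41.0% GC. Across the 45 members Spearman's rho between GC content and ratio was -0.46, and across 8874 genes with at least 1000 reads it was -0.48. This is a description, since all points share the same 2 libraries. Of the 8 ES cell markers, 2 were called higher in B and 0 lower. The share called was 2.29% of all genes tested and 4.27% of those with at least 1000 reads, and each ES cell marker had more reads than that. Dppa5a had a log2 ratio of 0.07 (adjusted p = 6.14e-20, exact binomial test) and Tdgf1 0.05 (adjusted p = 0.00325, exact binomial test). With the GC trend removed, Dppa5a kept its call with a log2 ratio of 0.06, and Tdgf1 lost its call with 0.03. Pou5f1, Sox2, Nanog, Esrrb and Klf4 had ratios below 0, and the median of the 8 markers was -0.008. Of the fibroblast markers, 4 of 13 tested were called lower in B (Col3a1, Postn, Col1a2 and Dcn) and 0 higher. Among all genes tested 0.989% were called lower in B. The 4 called markers had few reads, from 8 in B and 22 in A for Postn to 24 in B and 51 in A for Dcn. Their log2 ratios ran from -2.237 for Col3a1 to -1.597 for Dcn. With the GC trend removed all 4 kept their calls, with log2 ratios from -2.225 for Col3a1 to -1.63 for Col1a2. The median log2 ratio of the fibroblast markers tested was -0.31, with Fbn1, Col5a1 and Thy1 above 0. The 15 markers summed to 466 TPM in B and 480 in A, of which Fn1 gave 343 in B and 350 in A, and 10 of the 15 were below 1 TPM in at least 1 library, with none at 0. The part of these markers in the ratios of the helicases was not tested.

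**Figure D4:**
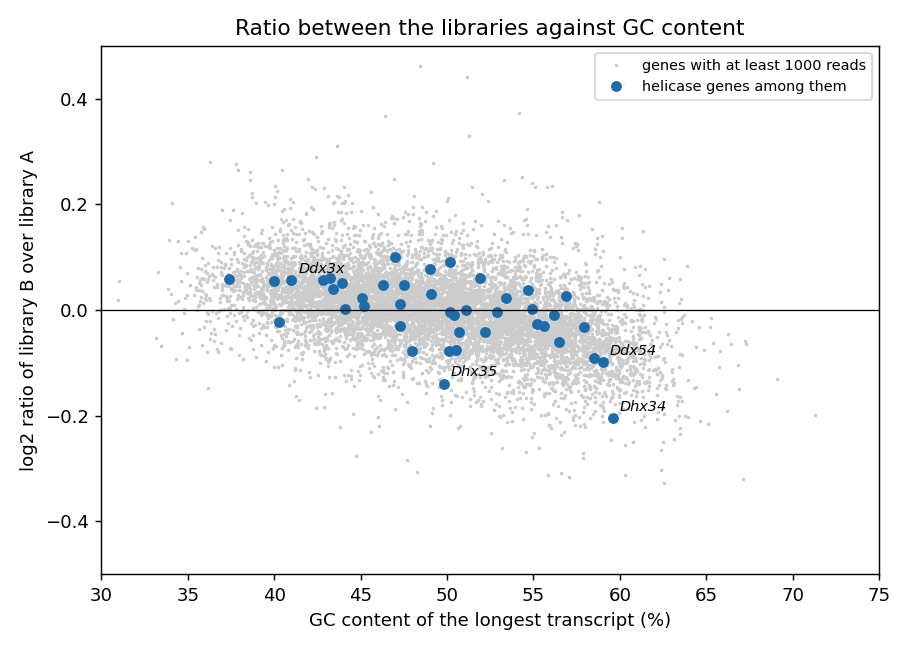
Log2 ratio of library B over library A against GC content of the longest transcript; grey points are genes with at least 1000 reads and blue points the helicase genes among them, with Ddx3x, Ddx54, Dhx34 and Dhx35 named, and 1 grey point lies outside the axes. Members with a high GC content tend to lie lower, with scatter. Ddx3x stands at 41.0% GC and 0.06 and Dhx34 at 59.6% and -0.20, but Dhx35 lies at -0.14 with 49.8% GC.

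Among the 47 ribosome assembly partners, 4 were called higher and 1 lower in B, beside 2.29% of all genes tested and 4.27% of genes with at least 1000 reads. Fbl, the methyltransferase of box C/D snoRNPs, had 61.4 TPM in B and 53.4 in A, a log2 ratio of 0.22 (adjusted p = 6.3e-07, exact binomial test). Mphosph10 of the small subunit processome had 95.35 TPM in B and 86.9 in A, a log2 ratio of 0.15 (adjusted p = 0.000164, exact binomial test). Utp3 and Wdr43, also of the small subunit, had log2 ratios of 0.13 and 0.07. Bop1, which acts in the large subunit, had 198 TPM in B and 218 in A, a log2 ratio of -0.12 (adjusted p = 2.59e-05, exact binomial test). Among the other RNA helicases Eif4a2 and Eif4a1 were called higher in B, each with a log2 ratio of 0.06. Nxf1, with -0.08, was the call of the 16 export partners. With the GC trend removed, Fbl kept its call, with a log2 ratio of 0.23 (adjusted p = 1.52e-07, exact binomial test), and the other partners named here lost theirs, with adjusted p between 0.0659 for Utp3 and 0.722 for Eif4a2 in the exact binomial test. The spliceosome, G-patch, SMN and tRNA ligase lists had 0 calls, as had the splicing helicases themselves.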

How the data were processed

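Poly-A RNA of 2 Drosha knockout ES cell libraries, made by a reverse-stranded protocol per the labels, was measured. Raw counts of reads for each Ensembl gene are what the authors deposited, 1 file for each library. The submitters' processing notes list STAR 2.4.2a and featureCounts 1.4.5-p1 as tools and mm10 as the build. No source used here gives the annotation release, whether counting used the strand, or how reads with several matches were treated. Symbols, biotypes, exon lengths and positions came from GENCODE M21 (GRCm38). A match was found for 97.5% of 43629 gene IDs, leaving 1081 with 0.163% of reads.

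From the counts TPM was computed over the union of annotated exons, and CPM with TMM factors (edgeR 4.0.16, R 4.3.3) from genes that reached 10 reads in the sum of both libraries. Log2 ratios of B over A took 0.5 added reads, and the reads were compared by an exact binomial test (two-sided, Benjamini-Hochberg adjusted, called under 0.05), since 1 library a side allows no replicated test. The coefficient of variation between the libraries beyond counting error was 2.25%. Sequences were read with Biopython 1.88 under Python 3.11.15 (scipy 1.17.1, pandas 2.3.3, matplotlib 3.10.9). Shared sequence was counted in 50-base words of all GENCODE transcripts, leaving out genes that overlap the member.

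The members, roles, lists and pairs were chosen with earlier results of these data known. Every member is named, with the 3 highest and the called genes of each partner list, of which 1 is not reported here, and all markers by count. Ddx39a is Ddx39 in this annotation. The symbols Skiv2l2, Utp11l and 2700060E02Rik had no match beside their newer names. Alternatives were other scalings, among them DESeq2 1.42.0 size factors, filters of 1 and 50 reads, an added count of 2 reads, an edgeR exact test in which a coefficient of variation of 0.1 was assumed, removal of the GC trend (20 bins), other lengths and thresholds, and each library alone.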

Additional observations from a re-analysis of the deposited data

How the results depend on the processing

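Of the 45 members, 42 to 44 passed the expression threshold under the other lengths, totals and thresholds, and 43 in each single library. The count of called genes, 417, was 144 with the GC trend removed and 1 in an edgeR exact test that assumed a coefficient of variation of 0.1, which exceeds the 2.25% estimated. The count of called members, 2, was then 0 in both. Under total counts, DESeq2 size factors and filters of 1 and 50 reads the called members were again Ddx3x and Ddx54. TMM factors taken over all genes with a read, an alternative added after the data were seen, gave 3 called members, adding Ddx19b (exact binomial test, adjusted p = 0.049). Its adjusted p under the other settings of that test was between 0.0621 and 0.367. Members higher in B numbered 19 with total counts and 23 to 25 under the other scalings and filters. The median log2 ratio of members ranged from -0.006 with total counts to 0.008 with the GC trend removed. At most 8 of 45 ratios changed sign under an alternative, and neither of the called ones did.

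Levels depended on the exon length used. The median TPM of members was 58.7 with the longest transcript, 58.6 without mitochondrially encoded genes, 53.2 without the 3 genes with near copies (added after the data were seen), and 53.1 to 54.2 in a single library. With the longest transcript the role medians were 86.7 TPM for splicing, 43.6 for export, 67.9 for ribosome assembly, 8.84 for the mitochondrial ribosome, 70.01 for translation, mRNA surveillance and RNP assembly, and 28.1 for the others. Without mitochondrially encoded genes they were 93.9, 52.2, 62.4, 11.2, 59.6 and 24.96 TPM, in that order. With the longest transcript the pair ratios were 1.46 for Ddx19a over Ddx19b, 0.171 for Ddx50 over Ddx21, 0.2705 for Dhx57 over Dhx36 and 0.9605 for Dhx37 over Dhx33. Longer or shorter lengths enter the TPM by construction. The largest changes in level were in Dhx15, Ddx50, Dhx30, Dhx33 and Ddx24, between 1.56 and 2.29 times. No paired analysis was possible because both libraries belong to 1 group. Depth limits the ratios of Ddx25, Dhx30, Dhx34 and Ddx60.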
